A study of Bruguiera gymnorhiza with 19 samples.

Results

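Leaves of Burma mangrove (Bruguiera gymnorhiza) that had spent 24 h in NaCl were compared with leaves of the same series taken at 0 h, just before the salt was added. The samples were taken from the labels alone: 3 at NaCl 24 h (A, B and C) and 3 at NaCl 0 h (A, B and C), which is 6 of the 18 samples of the series. They were read on 7 of its 19 arrays, since the RNA of NaCl 0 h C was also put on a repeat array, which was averaged into that sample. The description in a NaCl 0 h C label gives replicate A, while its title and characteristics give C, which was followed. For NaCl 24 h the culture water had been exchanged for a 500 mM NaCl solution. Plants of every group were 3 years and 7 months old, and all samples were whole leaf RNA. The other groups, of 3 samples each, were leaves after 6 h in NaCl, leaves after 6 h and 24 h in 1 M sorbitol, and a separate 0 h group of the sorbitol series. The labels call A, B and C biological replicates but do not say that they came from separate plants. P-values and standard errors here rest on the spread between samples within groups, pooled for each probe over all 18 samples of the series. They do not rest on the spread of the compared samples alone. Untreated leaves kept for 24 h are not among the samples, so that a day of salt and a further day in culture cannot be told apart within the NaCl series.

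Bruguiera gymnorhiza is a mangrove tree of tidal shores that has no salt glands in its leaves. Mangroves of this kind hold back much of the salt at the root, store what reaches the leaf in the vacuole, and balance it with organic solutes in the cytoplasm. NaCl stresses a plant both osmotically and through its ions, whereas sorbitol, a sugar alcohol, is used to impose the osmotic part without the salt ions. In whole leaves, a lower level of a transcript in each cell and a smaller share of the cells that hold it cannot be told apart.

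Each probe is a short oligonucleotide with an identifier. Names starting with Bg stand for single cDNA clones and names starting with CL for contigs, which are assembled from several clones, and the last 2 numbers of a name give the first and last base of the probe on that clone or contig. Gene descriptions were not used here, so no probe is given a gene name or a role, and the leaf label could not be set against marker genes. A selection of the called probes, not all of them among the strongest changes, is therefore shown by sequence, written 5′ to 3′. A pair of probes, each with one of the 5 highest fold changes after 24 h in NaCl, have nearly the same sequence, with the longest run they share in capitals:
Bg02-08_L08_505_539: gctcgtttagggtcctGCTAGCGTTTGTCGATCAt
Bg04-16_N01_505_539: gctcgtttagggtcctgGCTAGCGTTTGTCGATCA
That run is 18 bases long, and 34 of the 35 bases of the probe from Bg02-08_L08 lie in runs of at least 10 bases that both probes hold in the same order. Among the 339 probes called in this comparison it was the 1 pair that shared a longest run of 15 to 24 bases. The search for such pairs was added after the values of the named probes had been seen. It covered called probes only, so a near-copy that was not called could not have been found. The following 2 probes share their whole sequence, in capitals, although they come from different clones:
Bg04-10_M19_482_516: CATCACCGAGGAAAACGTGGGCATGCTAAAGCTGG
Bg04-19_M10_482_516: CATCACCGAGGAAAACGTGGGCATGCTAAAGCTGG
The next 2 share the 31 bases in capitals:
Bg04-12_G07_480_514: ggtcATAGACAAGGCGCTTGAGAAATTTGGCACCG
Bg05-24_G15_360_394: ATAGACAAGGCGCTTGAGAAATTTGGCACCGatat
The next sequences belong to further probes that were called whichever of the 6 samples was left out, with the highest rises and the deepest falls:
Bg05-15_J02_161_195: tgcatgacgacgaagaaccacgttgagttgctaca
CL715Contig1_116_150: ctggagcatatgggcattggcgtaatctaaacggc
Bg04-20_E09_129_163: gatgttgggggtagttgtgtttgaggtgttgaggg
Bg04-25_A07_625_659: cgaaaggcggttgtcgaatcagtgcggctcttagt
Bg01-01_I18_161_195: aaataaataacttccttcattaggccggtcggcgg
Among the called rises and falls for which the difference between the NaCl and the sorbitol change was called as well, the last 4 are the 2 rises with the highest and the 2 falls with the lowest difference:
Bg01-06_F05_321_355: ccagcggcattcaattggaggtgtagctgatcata
CL607Contig1_1017_1051: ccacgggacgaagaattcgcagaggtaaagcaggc
Bg01-02_M23_150_184: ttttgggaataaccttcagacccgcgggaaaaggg
Bg05-25_P04_73_107: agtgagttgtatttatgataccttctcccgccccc

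Median probe intensity was 455, 319 and 775 on the arrays of NaCl 24 h A, B and C, against 608, 796 and 467 on those of NaCl 0 h A, B and C and 327 on the repeat array. Between 6482 and 7160 probes were above the negative controls at NaCl 24 h, against 6371 to 7204 at NaCl 0 h. Across the tested probes, Pearson's r between samples was 0.925 to 0.9499 within NaCl 24 h, 0.884 to 0.932 within NaCl 0 h and 0.858 to 0.913 across the groups. Both arrays of NaCl 0 h C had an r of 0.963, with a median absolute difference of 0.22 on the log2 scale. None of the 4 arrays of lowest signal in the series, all of letter C in other groups, belongs to the compared samples.

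After 24 h in NaCl, 339 of 8655 tested probes (3.92%) had changed at an adjusted p under 0.05. Levels are given as log2 normalized intensity and changes as log2 fold change, NaCl 24 h minus NaCl 0 h, with the standard error (SE). Of the called probes 142 (1.64% of those tested) rose and 197 (2.28%) fell. The median change was 1.20 over the rises and −1.19 over the falls, and 0.03 over all tested probes. By the fitted change, rises of at least 2-fold numbered 115 and falls of that size 159, while 11 rises and 9 falls were at least 4-fold. These counts include probes not well above background in any sample of a group, whose fold is only a bound. Among those counted as 4-fold, the bound was 1.89-fold for the rise Bg01-06_F05_321_355 and 1.76-fold for the fall Bg01-02_M23_150_184. The falls of at least 4-fold also include some whose groups overlap. The 3 values at NaCl 24 h lay clear of the 3 at NaCl 0 h for all 142 rises and for 193 of the 197 falls, and this was also so for 2119 (24.5%) of all tested probes. An unadjusted p under 0.05 was reached by 1812 tested probes.

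**Figure D1:**
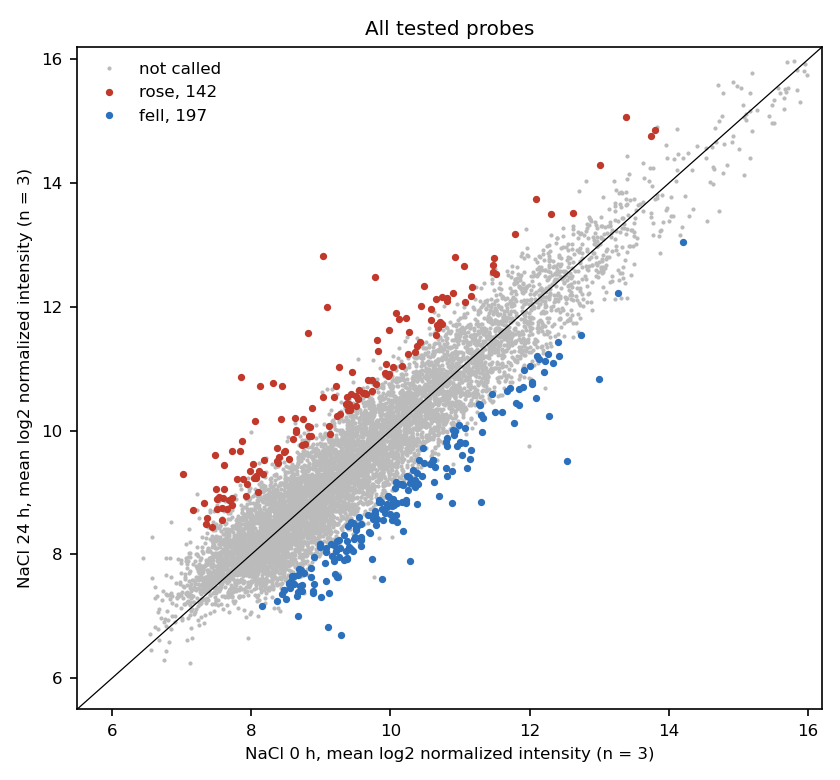
Mean log2 normalized intensity of each tested probe at NaCl 24 h (vertical axis, n = 3) and at NaCl 0 h (horizontal axis, n = 3), with the line of equal levels. The 142 rises (red) lie above the line and the 197 falls (blue) below it, over nearly the whole range of intensity.

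The highest fold change was that of Bg02-08_L08_505_539. Its level was 12.99, 12.70 and 12.79 at NaCl 24 h, against 9.48, 8.85 and 8.77 at NaCl 0 h. The groups lay far apart, and the change was 3.79 (SE 0.59, adjusted p = 0.00124), or 13.8-fold. Bg04-16_N01_505_539, the probe of nearly the same sequence, read 12.56, 12.17 and 12.71 at NaCl 24 h, against 10.18, 9.69 and 9.45 at NaCl 0 h. It rose by 2.71 (SE 0.27, adjusted p = 9.71e-06), and both probes were thus higher in each salt-treated sample. CL82Contig1_453_487 had the lowest adjusted p of the named rises, 5.28e-06, with 11.80, 11.09 and 11.85 at NaCl 24 h, against 8.70, 8.86 and 8.87 at NaCl 0 h. Its change of 2.77 (SE 0.26) came with a spread of 0.10 (SD, n = 3) among the samples at 0 h.

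Not all of the high rises were as even. CL715Contig1_116_150 read 10.50, 11.47 and 14.04 at NaCl 24 h, against 8.65, 9.28 and 9.32 at NaCl 0 h. Sample C stood well above A and B, the SD at 24 h was 1.83 (n = 3), and the change was 2.92 (SE 0.55, adjusted p = 0.00799). Against the sorbitol 0 h leaves the change of this contig probe was 1.53 and was not called (limma, adjusted p = 0.298). Bg04-15_J13_345_379 was also highest in C, with 10.03, 10.26 and 11.90 at NaCl 24 h, against 8.35, 8.07 and 7.94 at NaCl 0 h, where it was not well above background on any array. Against the dimmest signal that those arrays could detect, it was at least 5.07-fold higher at NaCl 24 h (adjusted p = 0.00362).

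Of the 142 rises, 29 were not well above background in any NaCl 0 h sample, and for these a fold is a lower bound. The bound sets the brighter group's mean against the dim group's mean after each dim value was raised to the lowest level seen for any detected probe on its array. Bg05-15_J02_161_195 read 10.74, 11.25 and 10.61 at NaCl 24 h, against 8.22, 8.34 and 6.97 at NaCl 0 h, and was at least 5.57-fold higher after the salt (adjusted p = 0.000267). CL311Contig1_553_587, CL607Contig1_1017_1051 and Bg01-06_F05_321_355 were at least 2.73-fold, 2.33-fold and 1.89-fold higher, with adjusted p-values of 0.000919, 0.000919 and 0.000678. All of their values at NaCl 24 h lay above all at NaCl 0 h. The rest of the 12 highest rises were Bg04-03_I07_204_238, Bg01-07_M16_257_291 and CL1201Contig1_501_535, with changes of 2.46, 2.28 and 2.11, and were each above background in 1 or 2 of the 3 samples at 0 h.

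Among the falls, Bg04-20_E09_129_163 read 8.63, 9.33 and 8.59 at NaCl 24 h, against 10.55, 11.69 and 11.65 at NaCl 0 h. It was detected in all 6 samples and fell by 2.45 (SE 0.36, adjusted p = 0.000919), which makes it 5.45-fold lower after the salt. CL76Contig1_677_711, the 1 contig among the 12 deepest falls, had 8.91, 8.89 and 9.01 at NaCl 24 h, against 10.50, 10.59 and 10.99 at NaCl 0 h. Its change was −1.76 (SE 0.26, adjusted p = 0.000919), and its salt-treated samples had an SD of 0.06 (n = 3). Bg01-01_I18_161_195 had 8.31, 8.34 and 8.48 at NaCl 24 h, against 10.35, 10.61 and 9.60 at NaCl 0 h, and changed by −1.81 (SE 0.25, adjusted p = 0.000678). Both groups were again clear of each other.

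Of the 197 falls, 39 were not well above background in any NaCl 24 h sample. Bg04-25_A07_625_659 read 7.71, 8.13 and 7.82 at NaCl 24 h, against 10.89, 10.25 and 9.68 at NaCl 0 h, and was at least 3.99-fold lower after the salt (adjusted p = 0.000267). Bg03-02_H21_358_395 and Bg04-09_G21_373_407 were at least 3.04-fold and 2.74-fold lower (adjusted p = 0.0216 and 0.00396). Bg04-13_H09_585_619 and Bg01-02_M23_150_184 were at least 1.79-fold and 1.76-fold lower (adjusted p = 0.00937 and 0.00868). Among the falls whose groups do not overlap, Bg05-22_G23_137_171 had the lowest fitted change and was less even, as it read 7.32, 6.54 and 6.23 at NaCl 24 h, against 7.52, 11.18 and 9.14 at NaCl 0 h. Sample A at 0 h was only just above the salt-treated samples and was not above background, and the bound was 2.00-fold (adjusted p = 0.0200). The other 3 of the 12 deepest falls, Bg04-25_C13_302_337, Bg05-25_P04_73_107 and Bg02-01_L10_171_205, were detected in all 6 samples and changed by −2.06, −2.05 and −1.70 (adjusted p = 0.00799, 0.00747 and 0.0123).

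**Figure D2:**
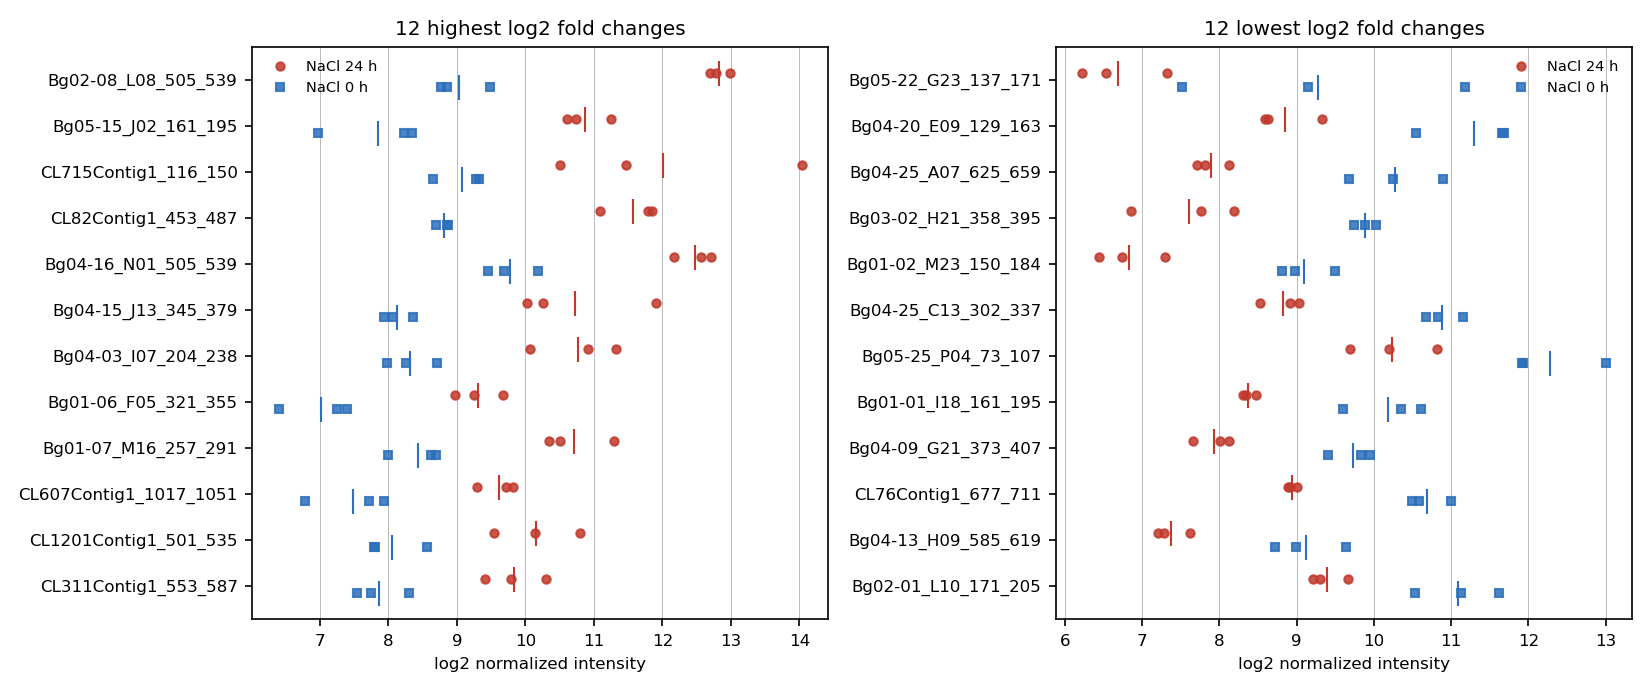
Log2 normalized intensity (horizontal axes) of the 12 probes with the highest and the 12 with the lowest log2 fold change whose groups do not overlap, in each of 3 NaCl 24 h samples (red circles, upper line of each pair) and 3 NaCl 0 h samples (blue squares), with group means as ticks. NaCl 24 h C stands apart for CL715Contig1_116_150 at 14.04, and NaCl 0 h A reads 7.52 for Bg05-22_G23_137_171.

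The 5 called probes of highest mean level were 4 that rose and 1 that fell. Bg05-12_K20_206_240 read 15.11, 15.02 and 14.44 at NaCl 24 h, against 13.69, 13.69 and 14.05 at NaCl 0 h, a change of 1.05 (SE 0.25, adjusted p = 0.0286). Bg04-16_D19_73_107 changed by 1.02 and CL27Contig1_215_249 by 1.28 (adjusted p = 0.0306 and 0.0149), also with no overlap. CL5Contig3_252_286 changed by 1.70 (adjusted p = 0.0120), with 14.44, 14.81 and 15.98 at NaCl 24 h, against 13.81, 12.87 and 13.46 at NaCl 0 h. It was the 1 called probe with a saturated spot, in 1 sample at 24 h. Bg05-09_E01_49_83 fell by 1.15 (adjusted p = 0.0164), to 13.30, 13.17 and 12.69 at NaCl 24 h, against 14.37, 14.42 and 13.82 at NaCl 0 h. Of the 6 fits that left out a compared sample, Bg05-12_K20_206_240 and Bg04-16_D19_73_107 were each called in 2. CL27Contig1_215_249 and Bg05-09_E01_49_83 were each called in 3, and CL5Contig3_252_286 in 5. Against the sorbitol 0 h leaves none of these 5 changes was called.

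The number of calls depended strongly on single samples. Under NaCl 24 h minus NaCl 0 h, 93, 53 and 177 probes were called without NaCl 24 h A, B or C, and 210, 36 and 555 without NaCl 0 h A, B or C. In all 6 of these fits 30 of the 339 probes were called, 23 that rose and 7 that fell, and 13 were called in none of them. Of the 12 highest rises, 11 were among the 30, the exception being CL1201Contig1_501_535 with 5 of 6 fits. Of the 12 deepest falls, 5 were: Bg04-20_E09_129_163, Bg04-25_A07_625_659, Bg01-01_I18_161_195, Bg04-09_G21_373_407 and CL76Contig1_677_711. Without NaCl 0 h B the calls were 25 rises and 11 falls, against 142 and 197 with all samples. When NaCl 24 h was set against the sorbitol 0 h leaves in place of its own 0 h leaves, 57 probes were higher and 28 lower, and 42 of the 339 were called in the same direction, 37 rises and 5 falls. Of the 30 probes, 21 were called in the same direction against both 0 h groups, 20 of the 23 rises and 1 of the 7 falls, Bg04-20_E09_129_163.

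The leaves at 24 h were also compared with those after 6 h in NaCl, to see which changes went on after 6 h. Between these times 219 tested probes (2.53%) were called, 133 (1.54%) higher and 86 (0.994%) lower at 24 h. Those counts share the 24 h samples with the main comparison. Of the 142 rises 27 were higher at 24 h than at 6 h and none was lower (limma; 1 at an unadjusted p under 0.05). Of the 197 falls 4 were lower at 24 h than at 6 h and 1 was higher. The number of calls under NaCl 24 h minus NaCl 6 h was 117 with NaCl 24 h B omitted and 133 with NaCl 6 h B omitted. The array of NaCl 6 h C is among the 4 of lowest signal, and 209 probes were called without those arrays.

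Some rises appeared between 6 h and 24 h. CL1201Contig1_501_535 read 8.56, 7.81 and 7.79 at 0 h, 7.90, 6.25 and 6.82 at 6 h, and 9.54, 10.14 and 10.80 at 24 h in NaCl. It was above background in 1 of the 3 samples at 0 h and 1 at 6 h, and was 3.17 higher at 24 h than at 6 h (adjusted p = 3.25e-05). CL558Contig1_862_896 read 9.93, 10.31 and 11.09 at 0 h, 9.36, 9.19 and 9.25 at 6 h, and 11.39, 11.60 and 13.04 at 24 h. It was detected in each of these samples and was 2.74 higher at 24 h than at 6 h (adjusted p = 0.000103). Its rise over NaCl 0 h was called in only 2 of the 6 fits that left out a compared sample. Against the sorbitol 0 h leaves, at 12.10, 12.34 and 11.55, its change at NaCl 24 h was 0.02 and was not called. Bg05-15_J02_161_195 at 6 h, with 8.36, 7.81 and 8.51, overlapped its values at 0 h, and it was 2.64 higher at 24 h than at 6 h (adjusted p = 0.000196). Bg02-08_L08_505_539 was intermediate at 6 h, with 10.09, 10.84 and 10.01, and was 2.51 higher at 24 h (adjusted p = 0.0205). It lost that call in 8 of 30 other settings, among them the fits without NaCl 24 h A, B or C. Its near-copy Bg04-16_N01_505_539 was also higher at 24 h than at 6 h, by 1.90 (adjusted p = 0.000157).

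Other probes moved late or turned round. Bg04-20_E09_129_163 was at 11.43, 11.42 and 10.79 at 6 h in NaCl, within its range at 0 h, and was 2.37 lower at 24 h than at 6 h (adjusted p = 0.00036). Bg05-07_B05_380_414 read 10.92, 10.95 and 11.61 at 0 h, 13.94, 13.11 and 13.73 at 6 h, and 9.99, 9.47 and 9.61 at 24 h. It was thus below its 0 h level at 24 h, by 1.47 (adjusted p = 0.0253), after being above it at 6 h. Bg04-23_F21_237_276 changed by −1.17 between 6 h and 24 h (adjusted p = 0.0136). Bg05-08_B01_705_739 was also lower at 24 h than at 6 h (adjusted p = 0.0200), and since it was not well above background in any sample at NaCl 24 h, its fall against NaCl 0 h was at least 1.64-fold. The 1 fall that had partly come back was Bg05-09_J17_41_79, named here after its values were seen: 12.58, 12.25 and 12.41 at 0 h, 9.56, 9.38 and 9.42 at 6 h, and 11.22, 11.49 and 11.59 at 24 h.

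Over the 197 falls the median change at 6 h in NaCl was −1.09 and 196 were below 0, against medians of 0.02 over all tested probes at 6 h and −1.19 over the falls at 24 h. The 142 rises had a median of 0.87 at 6 h, with 127 above 0, and 1.20 at 24 h. Both changes subtract the same NaCl 0 h samples, on which the sets were chosen, and this partly fixes both the shared sign and the size at 6 h. The median level of the rises was 9.35, 9.18 and 9.32 in the samples at 0 h, 10.11, 9.96 and 10.25 at 6 h, and 10.47, 10.51 and 10.63 at 24 h. The median of the falls was 9.95, 10.17 and 9.75 at 0 h, 8.89, 8.88 and 9.06 at 6 h, and 8.61, 8.73 and 8.89 at 24 h.

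To separate salt from osmotic stress, the change after 24 h in NaCl was compared with that after 24 h in sorbitol, each against its own 0 h leaves. The difference of these changes was called for 176 tested probes (2.03%), 65 (0.751%) with the higher change in NaCl and 111 (1.28%) with the lower. Among the 142 rises it was called for 11, 4 higher in NaCl and 7 lower. Among the 197 falls it was called for 33, all lower in NaCl, and 1 of the 197 was higher in NaCl at an unadjusted p under 0.05. These counts share the NaCl samples with the calls themselves. Under NaCl 24 h change minus sorbitol 24 h change, 105, 87, 72, 98, 108, 268 and 86 probes were called without NaCl 24 h A, NaCl 24 h B, NaCl 0 h B, sorbitol 0 h A, sorbitol 0 h B, sorbitol 24 h A and sorbitol 24 h B. Without the 4 arrays of lowest signal, 2 of which hold the C samples of sorbitol 24 h and sorbitol 0 h, 93 were called.

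The rises and the falls had different courses in sorbitol, which has its own samples. Of the 142 rises, 137 were also above 0 after 24 h in sorbitol, with a median change of 0.86, against 0.02 over all tested probes. Of the 197 falls, 106 were below 0 in sorbitol, with a median of −0.06. No test was made of these medians.

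**Figure D3:**
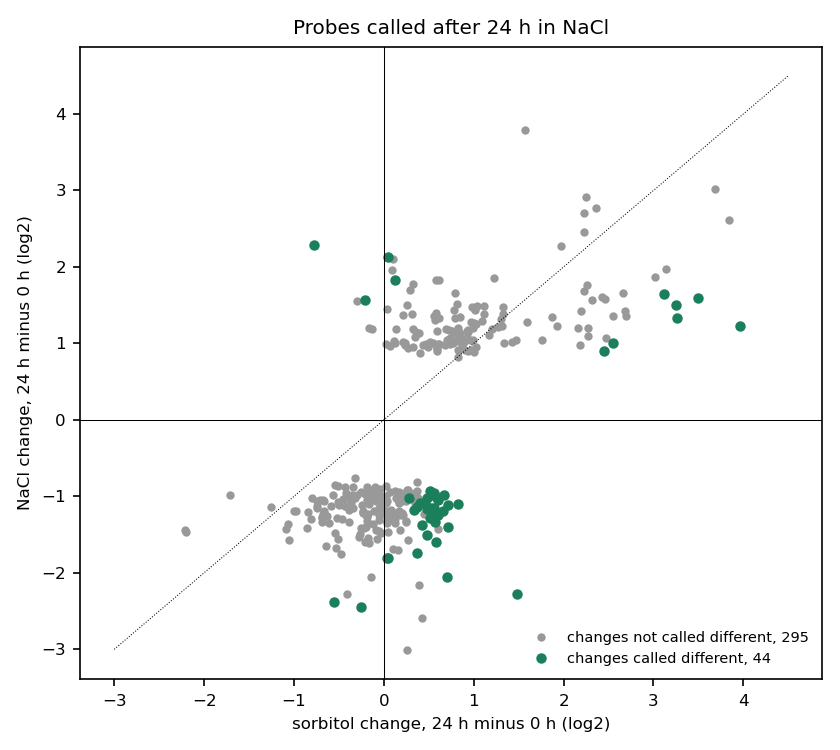
Change after 24 h in NaCl (vertical axis, log2) against change after 24 h in sorbitol (horizontal axis, log2) for the 339 probes called in NaCl, with green for the 44 whose changes were called different and a dotted line for equal changes. The rises spread out along the sorbitol axis, and the falls lie in a column around a sorbitol change of 0.

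Of the rises, 4 were called higher in NaCl than in sorbitol. Bg01-06_F05_321_355 read 8.98, 9.25 and 9.68 at NaCl 24 h, against 7.39, 7.25 and 6.40 at NaCl 0 h. In sorbitol it read 6.83, 6.17 and 6.88 at 24 h, against 7.02, 7.22 and 7.97 at 0 h, and the fitted changes differed by 3.07 (SE 0.46, adjusted p = 0.000755). CL607Contig1_1017_1051 was likewise higher in the 3 samples at NaCl 24 h, with 9.30, 9.72 and 9.82, against 7.93, 7.72 and 6.79 at NaCl 0 h. It read 7.57, 7.36 and 7.97 at sorbitol 24 h, against 7.39, 8.05 and 7.32 at sorbitol 0 h (fitted difference 2.08, SE 0.44, adjusted p = 0.0144). Bg05-07_J04_471_505 read 11.54, 11.75 and 12.41 at NaCl 24 h, against 10.34, 9.86 and 10.03 at NaCl 0 h, while its samples at sorbitol 24 h, 10.05, 10.12 and 10.42, overlapped those at sorbitol 0 h. The difference of its changes was 1.70 (adjusted p = 0.0221), and that of Bg05-07_H23_33_67, which was at least 1.59-fold higher after the salt, was 1.77 (adjusted p = 0.0364). Bg05-07_J04_471_505 was detected in all 12 samples. The other three were detected in all 3 samples at NaCl 24 h and in none at NaCl 0 h, sorbitol 24 h or sorbitol 0 h, so their differences are fitted values that rest on signals not well above background in 9 of the 12 samples.

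The lowest fitted difference among the rises was that of Bg05-25_J09_577_611, which was not well above background in any sample of either 0 h group. It read 8.68, 9.12 and 8.41 at NaCl 24 h, against 7.60, 7.48 and 7.45 at NaCl 0 h, and was at least 1.27-fold higher after the salt (adjusted p = 0.0375). That rise was called in only 1 of the 6 fits that left out a compared sample. It was not called against the sorbitol 0 h leaves (limma, adjusted p = 0.121). In sorbitol the probe read 11.99, 11.48 and 11.25 at 24 h, against 7.56, 7.90 and 7.38 at 0 h. The fitted changes differed by −2.74 (SE 0.45, adjusted p = 0.00182), a value that rests on the dim 0 h signals, and all 3 samples at NaCl 24 h lay below those at sorbitol 24 h. For 10 of the 12 highest rises the difference was not called, which does not show that the changes were alike. For Bg02-08_L08_505_539 the difference was 2.22 (SE 0.83, adjusted p = 0.159), and its 3 samples at sorbitol 24 h read 12.50, 11.96 and 8.97. Its near-copy Bg04-16_N01_505_539 read 12.05, 11.88 and 11.83 in the same samples, with a difference of 0.48 (SE 0.38, adjusted p = 0.563), so the low value of sorbitol 24 h C, one of the arrays of lowest signal, was seen with the first probe and not with the second.

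Among the falls, Bg01-02_M23_150_184 had the lowest fitted difference. It read 7.30, 6.44 and 6.74 at NaCl 24 h, against 9.50, 8.81 and 8.98 at NaCl 0 h. It read 9.61, 9.11 and 9.19 at sorbitol 24 h, against 8.03, 7.74 and 7.70 at sorbitol 0 h, and the fitted changes differed by −3.75 (SE 0.62, adjusted p = 0.00182). It was not well above background in any sample at NaCl 24 h or sorbitol 0 h, so that both changes have only a bound, which in NaCl was at least 1.76-fold lower. Bg05-25_P04_73_107 had 9.69, 10.20 and 10.82 at NaCl 24 h, against 11.93, 13.00 and 11.92 at NaCl 0 h. Its values were 10.63, 11.80 and 11.66 at sorbitol 24 h, against 10.55, 10.49 and 10.93 at sorbitol 0 h (difference −2.75, SE 0.54, adjusted p = 0.00765). In both probes the samples at sorbitol 0 h lay below those at NaCl 0 h. Bg04-20_E09_129_163, by contrast, read 11.07, 11.07 and 10.45 at sorbitol 24 h, against 10.85, 11.24 and 11.28 at sorbitol 0 h, a range that overlaps its NaCl 0 h values of 10.55, 11.69 and 11.65 (difference −2.19, SE 0.52, adjusted p = 0.0294).

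The 2 groups of 0 h leaves, both sampled before any treatment, differed for 70 tested probes (0.809%), of which 26 (0.300%) were higher and 44 (0.508%) lower in NaCl 0 h than in sorbitol 0 h. This comparison was added after the data had been seen, and its count was 28, 20 and 290 when NaCl 0 h A, B or C was omitted and 36, 24 and 40 when sorbitol 0 h A, B or C was. Of the 197 falls, 13 were called higher in NaCl 0 h than in sorbitol 0 h and none lower (0 also at an unadjusted p under 0.05). Of the 142 rises, 8 were called lower in NaCl 0 h and none higher (5 at an unadjusted p under 0.05). At an unadjusted p under 0.05, 158 of the 197 falls were higher in NaCl 0 h, out of 660 such probes among all tested, and 47 of the 142 rises were lower, out of 668. Calls in NaCl use the same NaCl 0 h samples, so a probe that happens to be high there is favoured among the falls and one that is low among the rises. The share of the difference between the 0 h groups in the calls was not tested.

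Measured against sorbitol 0 h, the median change of the falls was −0.39 and 176 of 197 were below 0. The rises had a median of 0.81 and 134 of 142 were above 0. Over all 8655 tested probes the median was −0.01, and 5795 had changes of the same sign against both 0 h groups. Both changes use the NaCl 24 h samples on which the sets were chosen, and this partly fixes the shared sign. The median level of the falls was 8.61, 8.73 and 8.89 at NaCl 24 h, against 9.12, 9.18 and 9.29 at sorbitol 0 h and 9.95, 10.17 and 9.75 at NaCl 0 h. The sets were chosen on the NaCl samples, and the gap to the 0 h leaves of the sorbitol series was the smaller. For the rises, NaCl 24 h with 10.47, 10.51 and 10.63 was also above both 0 h groups, with 9.63, 9.84 and 9.77 at sorbitol 0 h and 9.35, 9.18 and 9.32 at NaCl 0 h. A pair of named probes changed sign against the sorbitol 0 h leaves: Bg02-01_L10_171_205 to 0.06 and CL5Contig3_252_286 to −0.45, neither of them called.

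**Figure D4:**
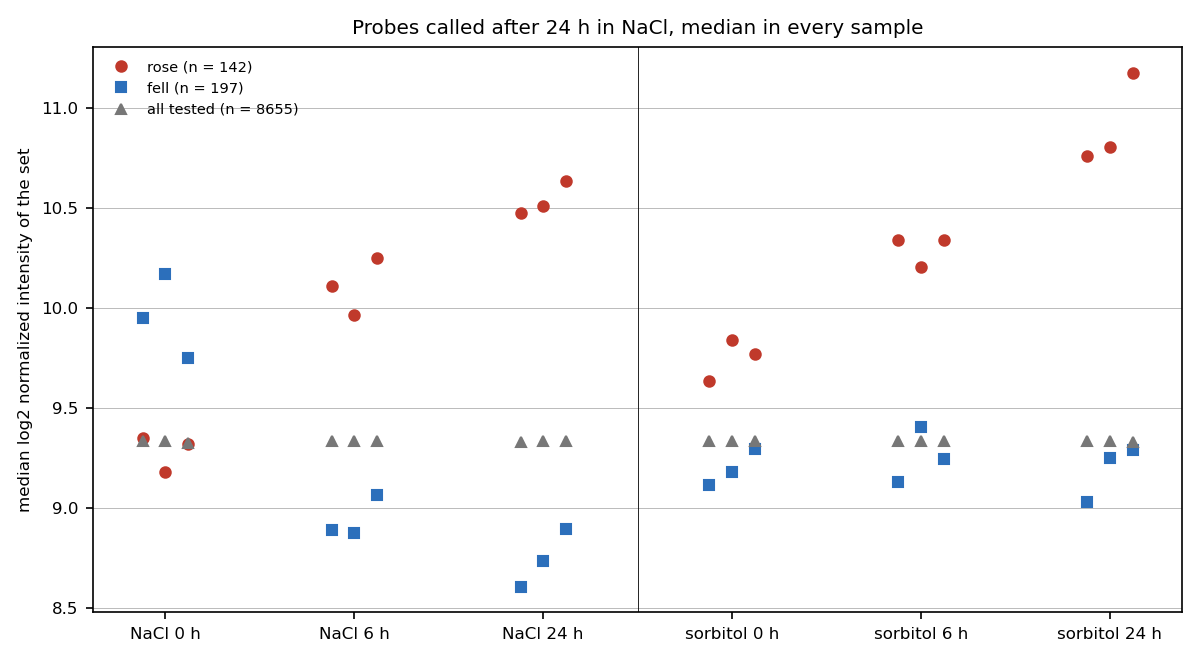
Median log2 normalized intensity (vertical axis) of the 142 rises (red), the 197 falls (blue) and all 8655 tested probes (grey) in each of the 18 samples, by treatment and time, 3 points a group for A, B and C from left to right. The falls are high in the 3 NaCl 0 h samples, 9.75 to 10.17, and between 8.61 and 9.40 in the other 15.

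Contigs and single clones differed in their counts of rises and falls, a difference that was not tested. Of 1031 tested contig probes 47 rose and 7 fell, whereas of 7624 single-clone probes 95 rose and 190 fell. Contigs thus made up 33.1% of the rises and 3.55% of the falls, and 11.9% of all tested probes. The median change was 0.23 over contigs, 70.0% of them above 0, and 0.00 over single clones, 50.04% above 0. The tested probes were also split evenly into low, middle and high mean intensity, where 195, 262 and 574 contig probes lay. Within these classes the contig median was 0.25, 0.15 and 0.24, and that of single clones 0.04, 0.01 and −0.05.

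The same tilt was smaller with the other control. Leaving out 1 of the 6 samples gave contig medians between 0.17, the value with NaCl 0 h B omitted, and 0.29, the value with NaCl 0 h C omitted. The calls among contigs were 7 rises and 1 fall with NaCl 0 h B omitted, against 18 and 10 among single clones. Under median scaling they were 5 and 1, against 15 and 13, and the contig median was 0.33, against 0.04 over single clones. Against sorbitol 0 h the contig median was 0.06, with 15 rises and 5 falls. Single clones had a median of −0.02 there, with 42 rises and 23 falls. After 6 h in NaCl the contig median was 0.25, and after 24 h in sorbitol it was 0.07. Between 6 h and 24 h in NaCl it was −0.02.

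**Figure D5:**
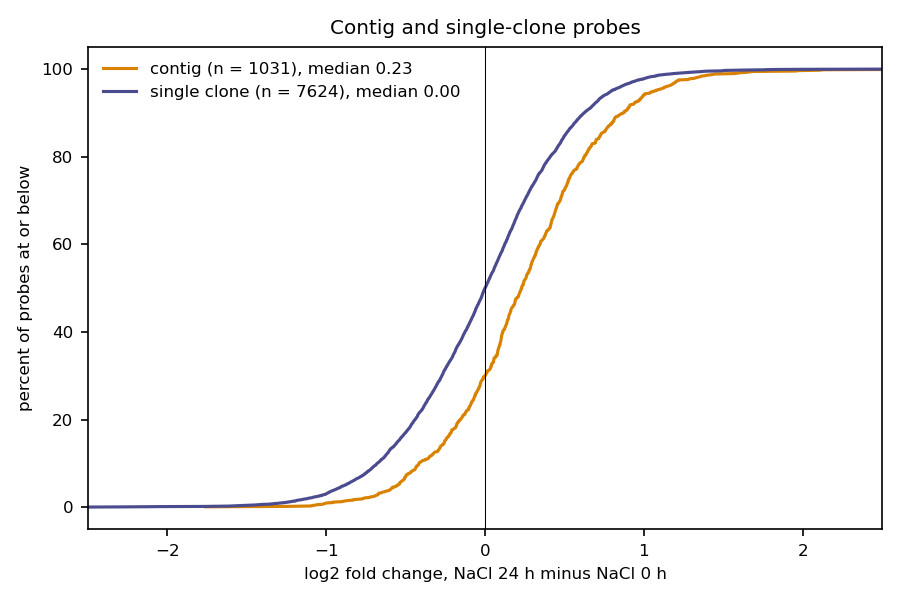
Percent of probes (vertical axis) at or below a given log2 fold change, NaCl 24 h minus NaCl 0 h (horizontal axis), for 1031 contig probes and 7624 single-clone probes. The contig curve lies to the right, with a median of 0.23 against 0.00.

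Where the array holds the same stretch of sequence more than once, the changes could be set side by side. There were 215 pairs of tested probes sharing at least 25 consecutive bases (384 probes), and their changes differed by a median of 0.25, with 75.3% of pairs within 0.5 166 of 215 (77.2%) with changes of the same sign, and Pearson's r of 0.654 over pairs. Among 60 pairs of identical sequence the median difference was 0.25, 42 (70%) had the same sign and r was 0.646. These pairs share samples and arrays, and r is given as a description. A called member was present in 17 pairs, and in all 17 both members had changes of the same sign, although both were called in only 2. These 17 were picked for a called member, and pairs without one are among the 215.

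These 17 pairs form 15 groups of probes with common sequence, which are named here after their values were seen. Bg04-10_M19_482_516 and Bg04-19_M10_482_516, identical in sequence, were not well above background in any NaCl 0 h sample and were at least 2.42-fold and 2.07-fold higher at NaCl 24 h (adjusted p = 0.00362 and 0.00802). The first averaged 9.66 ± 0.26 at NaCl 24 h and 7.84 ± 0.11 at NaCl 0 h, and the second 9.44 ± 0.25 at NaCl 24 h and 7.61 ± 0.08 at NaCl 0 h (SD, n = 3 each). Bg04-12_G07_480_514 and Bg05-24_G15_360_394 changed by 1.35 and 1.17 (adjusted p = 0.0410 and 0.0435). Both members were called in these 2 groups alone. In the others 1 member was called and the rest missed the threshold. CL99Contig1_532_567 rose by 1.60 (adjusted p = 0.00446), and Bg04-13_F23_528_563, with 34 bases in common, had a change of 0.93 (adjusted p = 0.0868). Bg04-16_L08_211_245 fell by 1.21 (adjusted p = 0.0129), and its identical partner Bg04-17_J19_211_245 had a change of −0.64 (adjusted p = 0.201). The widest gap between fitted changes was that of Bg05-20_B02_156_190, not well above background in any NaCl 0 h sample and at least 1.84-fold higher at NaCl 24 h (adjusted p = 0.0372), and Bg05-08_O19_160_195, with a change of 0.16 (adjusted p = 0.833).

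Base composition, probe position and clone series were described for the called probes. Median GC content was 48.6% for the rises, the falls and all tested probes. Among single clones the median start of the probe on the clone was base 256 for rises and 175.5 for falls, against 246 over all single clones. All tested probes, contigs included, were also split evenly by start position. Among the 2898 nearest the first base of their clone or contig, 36 rose and 82 fell. The counts were 48 and 68 among 2874 in the middle class and 58 and 47 among 2883 in the farthest. Contig probes had a median start of 394, later than single clones, so these classes mix position with probe type. Over the clone series, Bg01 had 16 rises and 12 falls among 724 probes, Bg02 10 and 21 among 918, and Bg03 10 and 25 among 953. Bg04 had 39 rises and 65 falls among 2996 probes, and Bg05 20 and 67 among 2033. Falls therefore outnumbered rises in 4 of the 5 clone series, Bg01 being the exception. None of these differences was tested.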

How the data were processed

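Cy5-labelled RNA of single leaf samples was hybridised to 1-colour oligonucleotide arrays, per the labels' protocols. The authors' deposited scanner files give each spot's foreground mean intensity on a linear scale, per the file headers, with no local background; no source used here names the scanner software. Foreground means were corrected with normexp (offset 50; foreground plus 50 on 4 arrays where that fit failed), log2 transformed and quantile-normalized over 11997 mangrove probes on 19 arrays. Probes above the 95th percentile of the array's 70 negative controls in at least 3 of 18 samples were tested (8655). One linear model held the 6 group means of all 18 samples (limma 3.58.1 with eBayes, R 4.3.3, 12 residual degrees of freedom), with Benjamini-Hochberg adjustment over all tested probes and a threshold of 0.05. The model was checked on simulated data with independent normal noise, which held no differences between arrays or between the 0 h groups. Figures used matplotlib 3.10.9.

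Named probes are the 12 highest and 12 lowest fold changes among called probes whose groups do not overlap; the 5 called probes of highest mean level; the 3 highest and 3 lowest among those called without any one sample; and the 4 highest and 4 lowest among those also called against 6 h or against the sorbitol change. A further part of the rule, probes sharing at least 25 bases with these 24, found none. A withheld probe is left out. Groups, lists and settings were chosen with earlier results of these data known. Planned lists by gene function could not be run without gene descriptions. The authors' deposited table of intensity values, log2 transformed here, served as an alternative.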

Additional observations from a re-analysis of the deposited data

Results flagged for a closer look

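For 13 named probes the change after 24 h in NaCl differed from the change after 24 h in sorbitol by the fitted test of that difference (limma, adjusted p under 0.05), with 3 samples a group. Rises in NaCl with the higher change there were Bg01-06_F05_321_355 (fitted difference 3.07), CL607Contig1_1017_1051 (2.08), Bg05-07_H23_33_67 (1.77) and Bg05-07_J04_471_505 (1.70). The first 3 were detected in none of the samples at NaCl 0 h, sorbitol 24 h or sorbitol 0 h, so these differences rest on signals not well above background. Leaving out each of the 12 NaCl and sorbitol samples of 24 h and 0 h in turn, the difference was called in 12 of 12 fits for Bg01-06_F05_321_355, 11 for CL607Contig1_1017_1051, 8 for Bg05-07_J04_471_505 and 5 for Bg05-07_H23_33_67. Bg05-25_J09_577_611, detected at 24 h in both treatments and in none of the 0 h samples, had a fitted difference of −2.74, called in 12 of 12 fits.

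Falls in NaCl with a lower change than in sorbitol were Bg01-02_M23_150_184 (fitted difference −3.75, called in 12 of 12 fits), Bg05-25_P04_73_107 (−2.75, 12 of 12), Bg01-01_I18_161_195 (−1.85, 12 of 12), Bg04-13_H09_585_619 (−2.12, 6 of 12), Bg04-25_A07_625_659 (−1.83, 5 of 12) and Bg04-20_E09_129_163 (−2.19, 5 of 12). For Bg04-09_G21_373_407 (−1.85) and Bg04-23_F21_237_276 (−1.52) the difference was called in 4 of 12. At NaCl 24 h Bg01-02_M23_150_184, Bg04-13_H09_585_619, Bg04-25_A07_625_659 and Bg04-09_G21_373_407 were detected in no sample, and the first 2 of these in none at sorbitol 0 h.

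The difference between the treatments also holds the difference between the 0 h groups. NaCl 0 h minus sorbitol 0 h was 1.62 (adjusted p = 0.0454) for Bg05-25_P04_73_107, 1.52 (adjusted p = 0.0329) for Bg04-13_H09_585_619 and 1.499 (adjusted p = 0.0152) for Bg04-25_A07_625_659. It was 1.28 (adjusted p = 0.167) for Bg01-02_M23_150_184, 0.95 (adjusted p = 0.0811) for Bg01-01_I18_161_195 and 0.84 (adjusted p = 0.200) for Bg04-09_G21_373_407. Bg04-23_F21_237_276 had 0.45 (adjusted p = 0.419) and Bg04-20_E09_129_163 had 0.18 (adjusted p = 0.859). Of these 8 falls, Bg04-20_E09_129_163 alone was called lower at NaCl 24 h than at sorbitol 0 h, by a change of −2.27 (adjusted p = 0.00126). Of the 5 rises, Bg01-06_F05_321_355, CL607Contig1_1017_1051 and Bg05-07_J04_471_505 were called higher than at sorbitol 0 h.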

How the results depend on the processing

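For NaCl 24 h minus NaCl 0 h the count of 339 called probes became 217 with a normexp offset of 0, 34 with median scaling (58.8% higher, against 41.9%), 154 with only the 7 arrays of both groups (50.6% higher), and 184 with no filter on dim probes. The control of sorbitol 0 h leaves gave 85 (67.1% higher) and pooling both 0 h groups gave 79 (86.1% higher). With 1 of the 18 samples left out it ran from 36 to 555. The authors' deposited table as given called 0 (408 at an unadjusted p under 0.05, median over all probes 0.14) and its NaCl columns without the repeat array, chosen after seeing the data, called 304, of which 219 were calls of the main analysis; 3 columns of the full table lie on another scale. The replicate letter as a block called 623. Between NaCl 24 h and NaCl 0 h the correlation of deviations of same-letter samples was −0.06, 0.22 and 0.12 for A, B and C. Pairs of different letters in these groups ran from −0.39 to 0.23. Between NaCl 24 h and NaCl 6 h the same-letter values were 0.36, −0.30 and 0.21. Whether the letters pair the samples was not tested. For NaCl 24 h minus NaCl 6 h, 219 became 115 with median scaling, 20 with the authors' deposited table and 117 to 255 with 1 sample left out. For NaCl 24 h change minus sorbitol 24 h change, 176 became 72 with median scaling, 0 with the authors' deposited table (408 at an unadjusted p under 0.05, median 0.62), 105 with probes detected in all 18 samples, 319 with the replicate block, 93 without the 4 arrays of lowest signal and 72 to 268 with 1 sample left out. The causes of these shifts in count were not tested. With sorbitol 0 h as the control probe Bg02-01_L10_171_205, NaCl 24 h minus NaCl 0 h, reversed to 0.064 and probe CL5Contig3_252_286, NaCl 24 h minus NaCl 0 h, to −0.45; no other named probe changed direction in any setting run. Signal over background limits dim probes to bounds, and 3 samples a group limit the precision.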

Other observations

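A pair of called falls, named after their values were seen, stood outside the named probes because their groups overlap. Bg04-30_D05_302_336 read 9.77, 9.35 and 9.43 at NaCl 24 h A, B and C, against 8.93, 14.11 and 14.54 at NaCl 0 h A, B and C. Its fitted change was −3.01 (limma, adjusted p = 0.0476), and the high values were those of NaCl 0 h B and C alone. Bg04-11_P10_294_328 had a like arrangement, with 10.56, 10.77 and 11.19 at NaCl 24 h, against 10.82, 14.21 and 13.98 at NaCl 0 h, and a fitted change of −2.16 (adjusted p = 0.0439). The other two called probes with overlapping groups, Bg05-19_B09_83_117 and Bg02-10_H05_396_430, changed by −0.94 and −1.26 (adjusted p = 0.0492 and 0.0447).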
